A study of Homo sapiens with 2 samples.

Results

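Transcript models that cover only a piece of an annotated human transcript, and that were filed neither as a plain 3′ piece nor as a plain 5′ piece, were examined in direct RNA sequencing of GM12878, an Epstein-Barr virus-transformed B-lymphoblastoid cell line. Each row of the deposited table is 1 transcript model with its number of reads in replicate 1 and in replicate 2. The models of interest were the incomplete splice matches (ISM) whose subtype is written as Both or as None and that held at least 5 reads in each library. They were thus chosen by their read counts in both libraries, and those counts are given as a description. This rule kept 1857 of the 237608 models: 189 of the 6936 Both models (2.72%) and 1668 of the 7359 None models (22.7%). The 2 libraries form 1 group of the same untreated cell line, and no second condition was analysed. Nothing in the labels says that the replicates came from separate cultures, so each test compares the reads of 2 libraries and measures a spread that may be technical.

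In direct RNA sequencing a native poly(A) RNA strand is threaded through a pore starting at its 3′ end. A strand that is broken, or whose reading stops early, therefore gives a read that keeps the last exon and lacks the 5′ exons. An incomplete splice match is a read structure whose splice junctions form an unbroken stretch of those of an annotated transcript. Suffix is the subtype that matches the 3′ part and Prefix the one that matches the 5′ part. Going by the names, Both marks a model that matches as a suffix and as a prefix and None a model that matches as neither; the sources used here do not define these words, so the table's own values are described.

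The sequences that show what the subtypes hold lie at exon junctions, since a junction is what a splice match is made of. For None models the junction printed is the one in front of the last exon, which the model does not contain. For Both models it is the first junction that the model keeps. Each sequence is 30 bases of an annotated GENCODE release 29 transcript in GRCh38, read 5′ to 3′ on the strand of the gene, with the last 15 bases of the upstream exon in lower case and the first 15 bases of the downstream exon in capitals.

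CCL22, None, exon 2 to 3 of 3: gaggcctggcgtggtGTTGCTAACCTTCAG
EEF1A1, None, exon 6 to 7 of 7: actatccacctttggGTCGCTTTGCTGTTC
SET, None, exon 7 to 8 of 8: ggggaggaaggagagGAGGATGAAGGAGAA
CDC42, None, exon 6 to 7 of 7: tctgcacttacacagAAAGGCCTAAAGAAT
MSN, None, exon 12 to 13 of 13: cagaagcacctgaagGCCCTCACTTCGGAG
RPS15A, Both, exon 2 to 3 of 5: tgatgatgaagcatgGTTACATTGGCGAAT
RPS4X, Both, exon 2 to 3 of 7: ttgaccggtgtgtttGCTCCTCGTCCATCC
RPL37, Both, exon 2 to 3 of 4: agcgcaagagaaagtATAACTGGAGTGCCA
ACTB, Both, exon 5 to 6 of 6: acaatgaagatcaagATCATTGCTCCTCCT
EEF1A1, Both, exon 3 to 4 of 8: acagggacatctcagGCTGACTGTGCTGTC

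In the None models of this set the capitals are, by the length of the model, where it begins. CCL22 begins in the exon at chr16:57363504-57366190 on the plus strand, EEF1A1 at chr6:73515750-73517934 on the minus strand, and CDC42 at chr1:22091428-22092946 on the plus strand. In the Both models the junction is inside the model. The lower-case bases are the end of exon 2 of RPS4X, chrX:72276157-72276234 on the minus strand, and of exon 2 of RPS15A, chr16:18788981-18789118 on the minus strand.

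Exon number separated the subtypes. Of the 1668 None members, 1667 had 1 exon, and so did 5685 of all 7359 None models; none of the 91672 ISM models outside None had 1 exon. The exception among the members was a model of RPS6, a protein of the small ribosomal subunit, with 5 exons and 1300 bases, which held 370 reads in replicate 1 and 422 in replicate 2. Both members had 2 to 20 exons with a median of 4 (quartiles 3 and 5). The highest exon numbers were 20 in ANXA6, an annexin, 15 in CEBPZ and 14 in PARP1, a sensor of DNA breaks. In replicates 1 and 2 those models held 9 and 15 reads in ANXA6, 20 and 8 in CEBPZ, and 12 and 9 in PARP1. Beyond RPS6, every None member ties at 1 exon, and the next by identifier were USP14, a deubiquitinating enzyme, with 30 and 40 reads and RIC8A, a chaperone of G proteins, with 16 and 24. A typical Both member had 50% of the exons of the longest-spliced annotated transcript of its gene, taken as a median over members.

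Length did not separate them in the same way. The median length was 1148 bases for Both members (quartiles 705 and 1531, range 171 to 4104) and 1021.5 bases for None members (631.75 and 1593, range 14 to 4868). Suffix models with the same minimum had a median of 1150 bases, Prefix models 880 and known models 1614. No test was run over models, because models of 1 gene share their source.

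**Figure D1:**
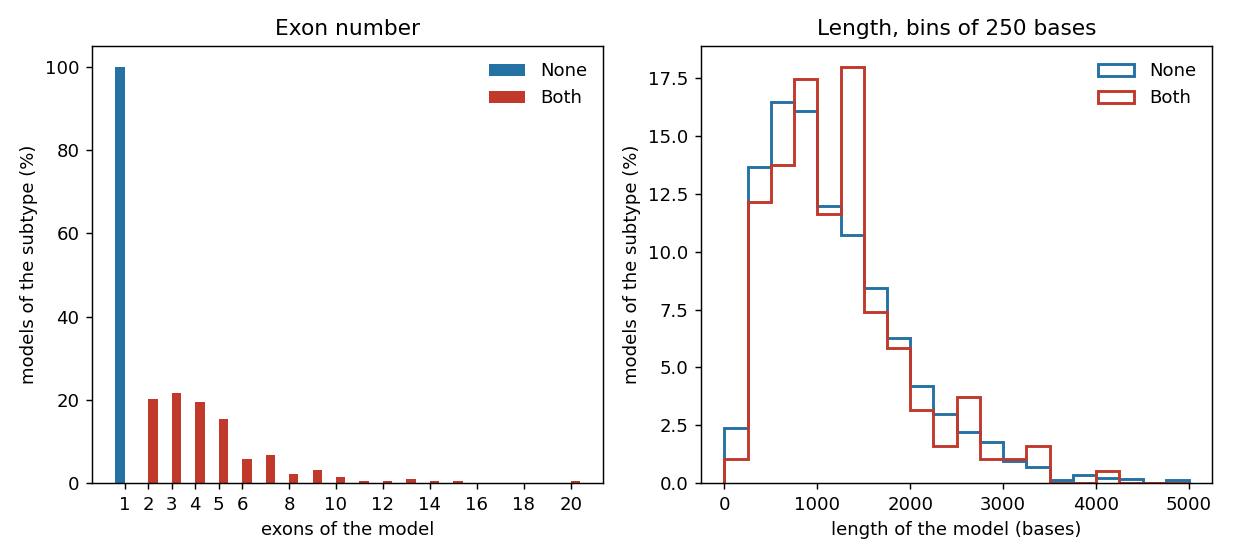
Share of the 189 Both and the 1668 None members (%) by exon number (left) and by length in bins of 250 bases (right). None members stand at 1 exon and Both members spread from 2 to 20, while the length distributions overlap.

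The single exon of the None members was, by length, mostly a last exon. The table gives no coordinates for these models, so each was placed by comparing its length with every annotated exon of its gene. The length is that of the model. Where its single reads begin and end is not given, so an equal length does not show that they span the exon. Among the 1662 single-exon None members in annotated genes, 1243 (74.8%) equalled an annotated exon to the base. Of these, 1230 equalled only last exons, 5 only first exons, 4 only internal exons and 4 exons of several kinds. Independently of an exact match, 1096 (65.9%) were too long to be any annotated exon of their gene but a last one. With a tolerance of 10 bases 1334 matched, with 100 bases 1431 did, and 46 were longer than every annotated exon of their gene.

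A unique last exon was found for 1228 members. It carried the end of the coding sequence and untranslated sequence in 975, only 3′ untranslated sequence in 107, only coding sequence in 1, and belonged only to transcripts without a coding sequence in 145. These last exons had a median length of 1011 bases, against 612 bases for the 4875 last exons of known models with the same minimum and 307 bases for all 52143 annotated last exons of genes with at least 20 reads. The letters AATAAA, the main polyadenylation signal, occurred on the transcript strand in the last 50 bases of 821 of the 1228 (66.9%), in 2850 of the 4875 (58.5%) and in 12169 of the 52143 (23.3%). A known model with the minimum used the same last exon in 361 of the 1228 (29.4%).

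**Figure D2:**
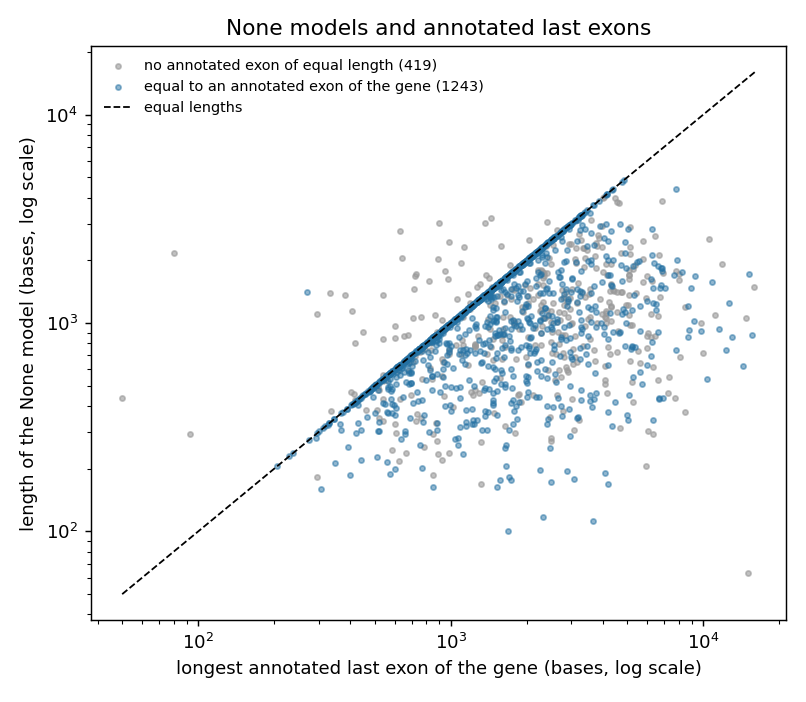
Length of each single-exon None member in an annotated gene against the longest annotated last exon of that gene, both in bases on log axes. The 1243 blue points equal some annotated exon of their gene, and many lie on the dashed line of equal lengths; the 419 grey points equal none.

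Both members were harder to place. The summed length of a run of annotated exons equalled the model in 106 of 189 (56.1%), and in 101 it did so for 1 run. Of those 101 runs, 53 lay at the 3′ end of a transcript, 33 were the start of one annotated transcript and the end of another, 8 lay at the 5′ end, 6 were internal and 1 was a whole transcript. For comparison, the same placement put 97.4% of 3067 placed Suffix models at a 3′ end and 93.5% of 92 placed Prefix models at a 5′ end.

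The members held a sizeable share of incomplete reads. Both members received 29197 reads in replicate 1 and 41115 in replicate 2, which was 9.01% (95% Wilson interval 8.91 to 9.10%) and 8.52% (8.44 to 8.60%) of ISM reads, a mean of 8.76 ± 0.345% (SD, n = 2). None members received 45187 and 73062 reads, or 13.9% (13.8 to 14.1%) and 15.1% (15.03 to 15.24%), a mean of 14.5 ± 0.847%. The None members exceeded the Both members in each library. The libraries held 1360368 and 1510998 reads, of which 324221 and 482746 were ISM reads, and the intervals cover counting error only.

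The minimum was one way of choosing among many thinly read models. A single read supported 4902 of all Both models (70.7%) and 3298 of all None models (44.8%). Just inside the rule, with exactly 5 reads in the poorer library, stood 31 Both and 179 None models of 10 to 32 and 10 to 39 reads in all. Just outside, with exactly 4, stood 55 Both models of 8 to 33 reads and 223 None models of 8 to 34. Without replicate 1 the rule gave 445 Both and 2403 None models, and without replicate 2 it gave 233 and 1759.

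Most genes had a member of 1 subtype only. The members lay in 1754 genes: 136 with a Both member, 1650 with a None member, and 32 with members of both subtypes, which was 23.5% of the former and 1.94% of the latter. Over all 8260 genes with at least 10 reads in each library, 19.3% had a None member and 1.65% a Both member. The overlap thus lay near the shares over all genes. Protein-coding genes held 179 Both members (94.7%) and 1642 None members (98.4%). In 1632 genes there was 1 None member and in 18 there were 2; in 110 genes there was 1 Both member, in 13 there were 2 and in 13 more. Genes of Both members were the more highly read, with a median of 347 and 343 CPM (counts scaled to a common library total) over the members in replicates 1 and 2, against 44.1 and 43.7 for None members.

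Within its gene a None member was often the leading model, and a Both member seldom was. The median share of the reads of the gene was 28.3% in replicate 1 and 41.1% in replicate 2 for None members (34.7 ± 9.08%, SD, n = 2), and 3.35% and 4.58% for Both members (3.96 ± 0.868%). The minimum of 5 reads sets a higher floor for this share in genes with fewer reads, as those of None members were. The shares were not compared at equal gene level. In both libraries, 954 of 1663 None members in annotated genes (57.4%) had more reads than every known model of the gene. Likewise 834 (50.2%) had at least as many as every other model of any category. The same was true of 33 (17.5%) and 15 (7.94%) of the 189 Both members. No known model of the gene had a read in either library for 164 None and 11 Both members. Overlapping genes can blur these shares: 195 None members (11.7%) and 25 Both members (13.2%) lay in genes that overlap a protein-coding gene on the same strand.

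**Figure D3:**
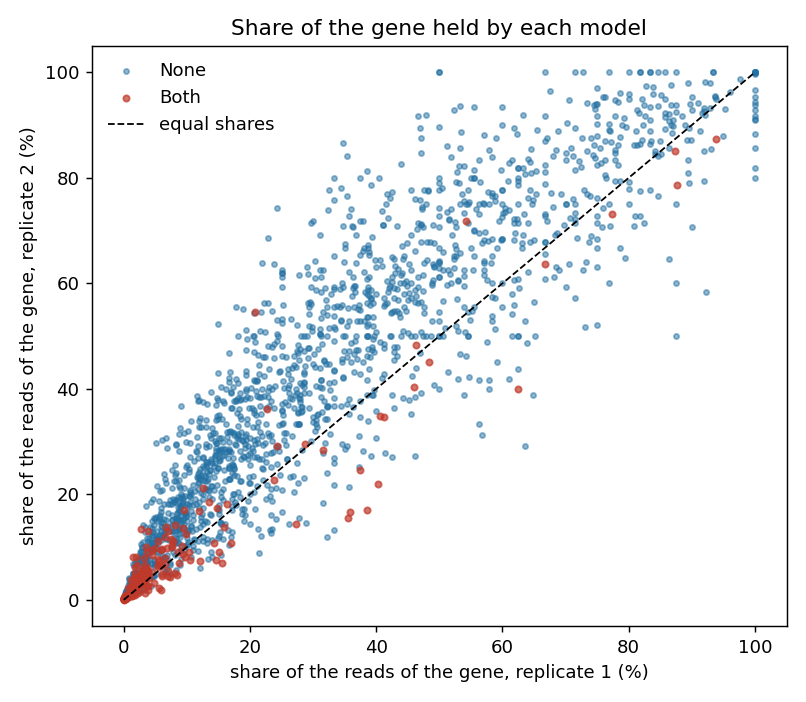
Share of the reads of its gene held by each member in replicate 1 (x axis, %) and replicate 2 (y axis, %), with equal shares dashed. None members fill the range up to 100%, 1407 of 1663 of them with the larger share in replicate 2, and most Both members lie near the origin.

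Among the None members with the most reads was CCL22, a chemokine that attracts T cells. Its model has the length of the 2687-base last exon and held 1344 reads in replicate 1 and 2210 in replicate 2, against 379 and 107 reads in known models. The share of the gene was 74.5% and 93.8% (Fisher's exact test, Benjamini-Hochberg adjusted p = 3.81e-67), so the last exon alone exceeded the full models in each library. IRF4, a transcription factor of B cells and plasma cells, had 426 and 395 reads in a 3989-base model, 4 bases from an annotated exon length, and 4 and 0 known reads. That was 92.8% and 98.01% of its reads. CDC42, a small GTPase of cell polarity, had 277 and 305 reads, 92.0% and 91.9% of its gene, and CMPK1, a nucleoside monophosphate kinase, had 124 and 163 reads, 91.9% and 93.1%. In both the single last exon made up nearly the whole gene and the shares of the 2 libraries lay close together.

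SET, a histone chaperone and inhibitor of a protein phosphatase, had 409 and 464 reads in its 1760-base last exon, 60.1% and 73.4% of the gene. MSN, the actin-membrane linker moesin, had 277 and 372 reads, 62.2% and 88.4%. PTMA, the nuclear protein prothymosin alpha, had 363 and 561 reads in a 465-base model, 15.1% and 26.4% of the gene. For these genes replicate 2 had the larger share each time.

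Elongation factors of translation were prominent in both subtypes. The None model of EEF1A1, which brings aminoacyl-tRNA to the ribosome, held 468 reads in replicate 1 and 2045 in replicate 2 (log2 ratio 1.97, exact binomial test, Benjamini-Hochberg adjusted p = 9.50e-196), 2.70% and 9.24% of the gene. EEF2, which moves the ribosome along the mRNA, had 554 and 1247 reads in a None model of 696 bases, 15.2% and 28.0% of the gene. The 7 Both models of EEF1A1, the most of any gene, ranged from 6 and 10 reads to 1157 and 3042. All of these EEF1A1 models had more reads in replicate 2.

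CPB2, a plasma carboxypeptidase best known from liver, stood apart. A model of 965 bases held 1489 and 2264 reads, 99.9% of the gene in each library, and no known model of CPB2 had a read. Its length was 361 bases from the nearest annotated exon of CPB2. The other-lineage genes ALB, HBG1 and GATA1 had 0 reads, APOA1 had 0 and 1, and COL1A1 2 and 3, while B cell genes ran from 39.7 and 46.3 CPM for PAX5 to 7766 and 8088 for CD74. On the same strand ZC3H13 begins 436 bases away with 23 and 28 reads, and LCP1, an actin-bundling protein of leukocytes, lies 20887 bases away with 1188 and 543 reads. Whether the reads belong to CPB2 cannot be settled without coordinates.

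AC008763.3 was a similar case of a gene held by 1 None model, with 124 and 155 reads (97.6% and 98.7%). It overlaps TRAPPC5, a subunit of a vesicle-tethering complex, on the same strand, so the label of the gene is uncertain. A few genes had 2 None members. In BASP1 a 251-base model equal to a first exon held 7 and 6 reads and a 1627-base last exon held 244 and 285. In CAPRIN1, a binder of mRNA in granules, 2 alternative last exons held 10 and 11 reads, and 172 and 178 reads. EFHD2, FTL and GHITM also had 2 each, with counts between 11 and 92 reads.

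A few models held most of the Both reads, and several of them belonged to ribosomal protein genes. The 8 models with the highest counts held 69.1% of the Both member reads in replicate 1 and 54.7% in replicate 2, whereas the same number of None models held 12% and 13.2%. Cytosolic ribosomal protein genes supplied 38 Both models in 25 genes, and 57.9% and 47.7% of the Both member reads. RPL6, of the large subunit, had 3867 and 3523 reads in a 6-exon model, 87.7% and 78.7% of its gene. RPS15A, of the small subunit, had 3291 and 3841 reads in a 4-exon model, 87.4% and 85.0%. Each of these 2 models exceeded everything else in its gene.

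RPS4X had 2697 and 2676 reads (40.6% and 34.8% of the gene) in a 6-exon model, RPS14 had 2455 and 2767 (48.4% and 45.1%), RPL37 had 1876 and 1887 (46.4% and 48.3%) and RPL29 had 1440 and 1488 (31.6% and 28.5%). In these 4 genes the model shared the gene with others. Also among the 8 was ACTB, cytoplasmic actin, with 1379 and 2714 reads in a 3-exon model, only 6.53% and 11.9% of the gene. RPS4X had 5 Both models in all, including one of 114 and 480 reads.

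Most of the Both reads of ribosomal protein genes were in models that had 1 exon fewer than a known model. For 177 Both members the gene had a read in a known model of more than 1 exon. Of these, 43 had 1 exon fewer than the most-read such model, 118 had more than 1 fewer, 5 had as many and 11 had more. In ribosomal protein genes 11 of 38 (28.9%) had 1 fewer and in other genes 32 of 139 (23.0%). Those 11 held 92.7% and 83.0% of the ribosomal protein Both reads in replicates 1 and 2. The 32 held 14.1% and 9.35% of the others. Only exon number was matched here, and 6 of the 38 models (19 of 139 in other genes) were longer than that known model. Among the 6 were RPL6 with 2392 bases against 1074, RPS14 with 1587 against 569 and RPL29 with 982 against 723. These models, with 3867, 2455 and 1440 reads in replicate 1, were also among the 11 with 1 exon fewer. So were the models of RPS15A, RPS4X and RPL37, with 3291, 2697 and 1876 reads. The read shares of the 11 thus rest on a few models, several of them longer than the known model. The known model of RPL6 held 82 and 46 reads. The most-read known model of a ribosomal protein gene had a first exon of 177 bases (median, 25 genes) where there was a Both member and 147 bases (58 genes) where there was none. These 2 sets of genes were not matched for level, and a relation to first exon length was not tested. Among genes with at least 1000 CPM, 25 of 70 ribosomal protein genes and 16 of 71 others had a Both member.

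IGHA2, an immunoglobulin heavy-chain constant gene, had 6 Both models and no known read. The leading one held 578 and 1107 reads, 13.6% and 18.6% of the gene; near-identical constant genes could share reads with it. The 6 Both models of NCL, a nucleolar RNA-binding protein, ranged from 5 to 45 reads in replicate 1, and RBMX, a nuclear RNA-binding protein, had 5 models of 6 to 9 reads in replicate 1 and 7 to 18 in replicate 2. NDUFC1, a subunit of respiratory complex I, had 92 and 87 reads, 77.3% and 73.1% of the gene, in 1 Both model.

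**Figure D4:**
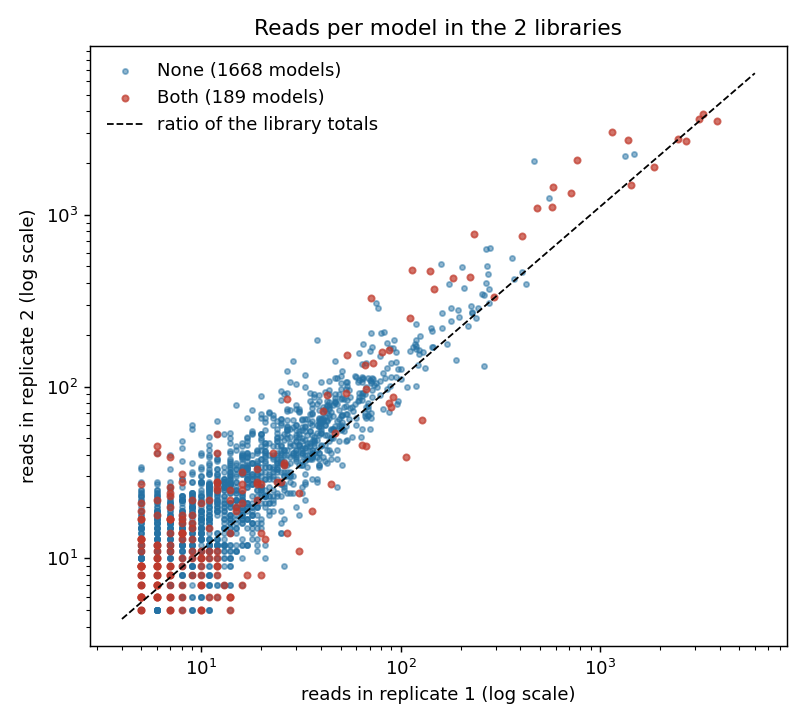
Reads of each member in replicate 1 (x axis) and replicate 2 (y axis), both on log axes, with the ratio of the library totals dashed. Of the Both members with the most reads, those of ribosomal protein genes lie near that line and those of EEF1A1 and ACTB above it. None members lie more often above it than below it.

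Replicate 2 held more of most members. Relative to the library totals, the median log2 ratio of replicate 2 to replicate 1 (0.5 reads added to each count) was 0.48 for None and 0.38 for Both members, against 0.14 over all models with at least 10 reads, 0.27 for Suffix, 0.05 for Prefix and -0.40 for known models. An exact binomial test against the library totals, adjusted over all models with at least 10 reads, called 232 None members, 228 higher and 4 lower in replicate 2, and 41 Both members, 35 higher and 6 lower. Over all models tested 15.6% were called, 8.23% higher and 7.34% lower; over those with at least 5 reads in each library 16.1% were called, 8.4% higher and 7.73% lower, against 13.9% of None and 21.7% of Both members. The minimum in each library limits how far a member can differ, so these shares are a description.

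The split depends on the scale. With the TMM scale, which brings the median of all models to -0.01, 167 None members were higher and 7 lower and 32 Both members were higher and 15 lower. With the ISM total as the scale, 81 None members were higher and 37 lower, 23 Both members were higher and 23 lower, and the Both median became -0.04.

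Shares within the gene do not use the library totals. By Fisher's exact test, adjusted over all models with at least 10 reads, 364 of 1658 None members had a changed share, 363 larger and 1 smaller in replicate 2. Over all 1658 the median difference, replicate 2 minus replicate 1, was 9.40 percentage points. Among Both members 45 of 189 did, 35 larger and 10 smaller, and the median difference over the 189 was 0.28 percentage points. Over all models tested 18.1% were called, 9.82% larger and 8.25% smaller; over those with at least 5 reads in each library 19.1% were called, 10.2% larger and 8.87% smaller. Suffix models of the same minimum went the same way, with 713 larger and 84 smaller of 5537. Prefix models had 24 larger and 26 smaller of 257. Known models went the other way, with 166 larger and 1424 smaller. The shares of a gene have a fixed total, so these directions are not independent of each other.

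The None members with the highest ratios had few reads in replicate 1. ACP1, a small tyrosine phosphatase, had 9 reads in replicate 1 and 60 in replicate 2 in a None model (log2 ratio 2.52, exact binomial test, adjusted p = 8.34e-08). CD99, a surface glycoprotein, had 6 and 41 (2.52, adjusted p = 2.86e-05) and RPLP1, an acidic protein of the ribosomal stalk, had 5 and 34 (2.50, adjusted p = 0.000158). In the other direction GIMAP5, a lymphocyte GTPase, had 26 and 9 reads, SWAP70, a signalling protein of B cells, had 48 and 26, and an unannotated antisense gene had 261 and 131. MTDH, the fourth None member called lower and named after its values were seen, had 189 and 143.

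For Both, RPS2, of the small ribosomal subunit, had 6 and 45 reads (log2 ratio 2.66, exact binomial test, adjusted p = 4.11e-06) and TKT, transketolase of the pentose phosphate pathway, had 6 and 41 (2.52, adjusted p = 2.86e-05). Another of the IGHA2 models had 7 and 39 reads (2.25, exact binomial test, adjusted p = 0.000196). The 6 called lower were LMNA, the nuclear lamina protein lamin A/C, with 106 and 39 reads (-1.58, adjusted p = 2.60e-08), TRAF1, an adaptor of TNF receptors, with 128 and 64 (-1.15, adjusted p = 3.36e-06), an NCL model with 31 and 11, and the leading models of RPL6, RPS4X and RPL37 given above, whose log2 ratios were -0.29, -0.16 and -0.14. The last 3 are small differences that the high read numbers made testable.

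The shift toward replicate 2 was larger in short members. The members were split at the quartiles of length. From the shortest to the longest of these 4 groups of None members, cut at 631, 1021 and 1593 bases, the median log2 ratio was 0.70, 0.55, 0.46 and 0.31, and 90, 61, 46 and 31 were called higher. The median share of the gene rose along the same groups from 8.06% to 58.8% in replicate 1 and from 13.8% to 74.5% in replicate 2. For Both members the median log2 ratios were 0.64, 0.64, 0.15 and 0.03.

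Genes with a long last exon gave more single-exon None reads. The 6272 genes with at least 20 known and ISM reads were ranked into 4 equal groups by their longest annotated last exon, and all None reads of 1 exon were taken as a share of known and ISM reads. The share was 1.94% and 3.64% in the group of 26 to 700 bases and 9.30% and 12.9% in the group of 2359 bases and more, in replicates 1 and 2. The difference of 8.30 ± 1.32 percentage points (SD, n = 2) was larger than the spread between the libraries. Ranked by longest annotated transcript instead, the shares ran from 2.08% and 3.66% to 11.3% and 15.3%; last exon length and transcript length were not separated.

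The share of reads in Both models rose and then fell with the number of annotated transcripts of the gene. The 4 groups, from 1 to 5 to 13 or more transcripts, gave 2.54% and 3.23%, 3.53% and 4.35%, 5.09% and 6.92%, and 1.95% and 3.36% of known and ISM reads. The outer groups differed by -0.23 ± 0.50 percentage points, within the spread between the libraries. The share of genes with a Both member was 1.15%, 2.23%, 2.68% and 2.55% in the same groups. The read shares pool all genes of a group, so a few highly read genes can set them. RPS14 had 8 annotated transcripts, RPL29 10, EEF1A1 11, and RPL6 and RPS15A 13 each. RPS4X had 5, RPL37 6 and ACTB 19. Ranked by longest annotated last exon, the mean shares also rose and fell, with 2.05%, 5.47%, 6.66% and 2.54%. Whether the pattern holds without these genes was not tested.

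**Figure D5:**
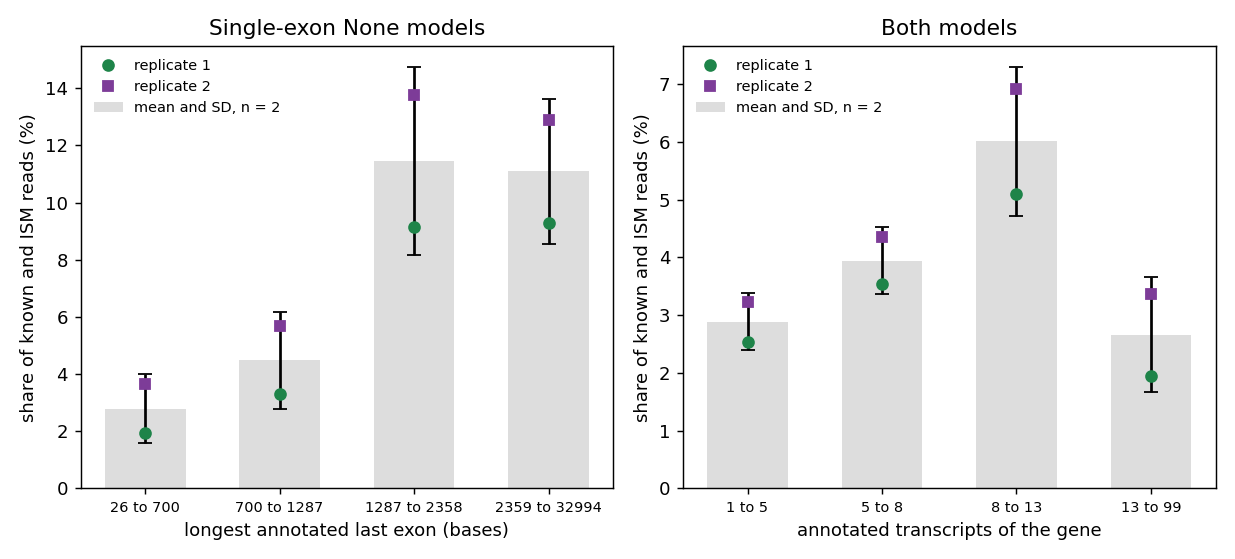
Share of known and ISM reads (%) in single-exon None models by longest annotated last exon (left, bases) and in Both models by number of annotated transcripts (right), in 4 groups of 1568 genes. Points are the replicates, bars the mean and whiskers the SD (n = 2); the left bars rise to 11.5% in the third group, and the right bars rise and then fall.

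Gene groups differed in how often they held a member. Of 8260 genes with at least 10 reads in each library, 1.65% had a Both member and 19.3% a None member. These shares differed with gene level. Outside the ribosomal protein genes they were 0.352% and 16.2% below 50 CPM in the poorer library, and 22.5% and 26.8% at 1000 CPM or more. The gene groups were not matched for level. None members occurred in 18 of 38 translation factor genes (47.4%), 8 of 17 glycolysis genes (47.1%) and 9 of 22 genes of the B cell receptor and surface (40.9%), the last with no Both member. In glycolysis LDHA, which makes lactate, had 267 and 634 None reads and TPI1, triose phosphate isomerase, had 160 and 516. CD79A, the signalling chain of the B cell receptor, had 62 and 156, and CD22, an inhibitory B cell receptor, had 40 and 106.

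The other groups lay nearer to the share over all genes for None: 9 of 34 actin cytoskeleton genes (26.5%), 6 of 23 antigen presentation (26.1%), 9 of 36 proteasome (25%), 5 of 24 chaperone (20.8%), 8 of 40 splicing (20%), 16 of 84 ribosomal protein (19.0%), 7 of 44 oxidative phosphorylation (15.9%) and 2 of 15 immunoglobulin genes (13.3%). Both members occurred in 25 of 84 ribosomal protein genes (29.8%), 3 of 15 immunoglobulin (20%), 3 of 17 glycolysis (17.6%), 4 of 23 antigen presentation (17.4%), 5 of 38 translation factor (13.2%), 4 of 40 splicing (10%), 3 of 34 actin (8.82%), 2 of 24 chaperone (8.33%), 1 of 36 proteasome (2.78%) and 1 of 44 oxidative phosphorylation genes (2.27%). In the level test the ribosomal protein group had 13 of 38 Both models called higher and 3 lower, beside 35 of 189 higher and 6 lower over all Both members. It had 12 of 17 None models called higher and 0 lower, with a median log2 ratio of 1.6, beside 228 of 1668 higher and 4 lower and a median of 0.48 over all None members. These 17 models were short, with a median of 212 bases against 1002 for the None members of the 8260 genes. The shift was larger in short members, and the ribosomal protein group was not matched for length or level. Over all models with at least 5 reads in each library 8.4% were called higher and 7.73% lower.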

How the data were processed

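Raw counts of reads per transcript model were deposited by the authors in 1 table, with the exon number and length of each model; the name of the table gives TALON as the program, and minimap2 and hg38 are named in the submitters' processing notes, with versions not given in the sources used here. Direct RNA was read in 2 libraries, per the labels' protocols. The deposited counts were used without normalization, at depths of 1360368 and 1510998 reads. All 23533 known models had the identifier, exon number and length of GENCODE release 29 (GRCh38), from which exons and transcript sequences were taken.

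Levels were compared by an exact binomial test, two-sided, with the library totals as the scale, and shares of a gene by Fisher's exact test, each over models with at least 10 reads, adjusted by Benjamini-Hochberg and called below 0.05, in Python 3.11.15 with scipy 1.17.1. A count model that sets the 2 libraries against each other has no residual degrees of freedom. Both tests were tried on simulated data. Alternatives used edgeR 4.0.16 (TMM) and DESeq2 1.42.0 size factors, other minimums, thinning of replicate 2, 1 model per gene, read weighting and each library left out. Named for each subtype were the 8 models with the highest poorer-library count, the 5 with the largest share in genes with at least 100 reads, the 3 strongest called ratios each way, the 3 with most exons and the 5 genes with most members, with ties by identifier; 1 model that this rule selects is not reported here. Genes named from the lists are those with high counts in them; MSN was named with the sequences. The members and lists were chosen with earlier results of these data known, and the placement by length, the AATAAA count, the ranked gene groups, the groups by length, the expression classes and the comparison with the most-read known model of more than 1 exon were set after the counts had been seen. Wilson intervals are at 95%.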

Additional observations from a re-analysis of the deposited data

How the results depend on the processing

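No paired analysis was possible because the 2 libraries form 1 group. Of the values recomputed under an alternative, 51 stayed within 1.5 times (counts) or 1 SD between the libraries (medians and shares) and 15 moved by more. The share of ISM reads with 1 library left out stays within that SD by construction, so its place among the 51 carries no information. The rule for counts does not look at direction. With the ISM total as scale, the 46 Both members called in level, 23 higher and 23 lower, are counted among the 51. The number of Both models was 331 with a minimum of 3 reads, 84 with 10, 306 with 10 in the sum, and 233 to 445 with 1 library left out; None fell to 1042 with 10. With 1 library left out, the median Both exon number was 3 to 4, the median length 857 to 1177 bases for Both and 861 to 1011 for None. Weighted by reads, it was 1411 bases for Both and 1199 for None, and 1132.5 for None with a minimum of 10. Without a minimum count the subtypes held 10.2% (Both) and 16.6% (None) of ISM reads. None members called in level numbered 118 with the ISM total as scale and 115 with no minimum for the test, where more models were tested.

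DESeq2 size factors over all models came out as 1 and 1 and so corrected no depth, which gave 46 Both and 319 None calls. Factors over models with at least 10 reads, set after this was seen, gave 47 and 174. The depth leaves models of a few reads open to counting error, and most models of both subtypes fell below the minimum.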
